A study of Neogale vison with 6 samples.

Results

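The type I interferon system lets a cell detect viral nucleic acid and warn itself and its neighbors. Cytosolic sensors such as IFIH1 (MDA5) bind double-stranded RNA and, through adaptors and the kinase TBK1, activate the transcription factors IRF3 and IRF7, which turn on interferon genes. Secreted interferon binds a receptor made of IFNAR1 and IFNAR2, and the kinases JAK1 and TYK2 then phosphorylate STAT proteins, among them STAT2, which joins IRF9 in ISGF3, the complex that drives interferon-stimulated genes (ISGs) such as ISG15 and MX1. Lower flux through sterol synthesis has been tied to interferon signaling in other cells, and the genes of this system were therefore examined in cholesterol-depleted cells.

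The symbols of 9 genes were looked up in the table of read counts, namely STAT2, IRF1, IRF3, IRF7, IRF9, IFIH1, ISG15, MX1 and IFNAR1. Of the 9 symbols, 8 had a row, among 24526 genes in all, and IRF7 had none under that symbol and was not analysed here. The cells were of the Mv1Lu line, which derives from the lung epithelium of the mink. The data comprised 3 control libraries, from cells left untreated, and 3 libraries from cells after cholesterol depletion (CD), for which they received 50 μM lovastatin, a statin that blocks HMG-CoA reductase, and 50 μM mevalonate, the product of that enzyme, in medium with 10% lipoprotein-deficient serum (LPDS) for 16 h. No interferon and no virus was among the listed treatments, and the labels do not give the serum of the control cells. The effects of the statin, the mevalonate and the change of serum cannot be told apart. Nothing in the labels says that the libraries of a group came from separate cultures, so p-values measure only the spread between these libraries, which may be technical. All come from 1 cell line.

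Between 13473820 and 18633764 reads per library were counted on genes. Levels are in CPM, the count relative to the TMM-scaled size of its library, and values after ± are the SD of the 3 libraries of a group. A gene was called where the edgeR quasi-likelihood test gave an FDR below 0.05, with adjustment over the 12148 genes that passed the filter on low counts. CD altered a large part of the transcriptome. By this rule 47.7% of the tested genes were called (24.8% of the tested genes higher and 22.9% lower in CD), so that a call by itself does not set a gene apart. The CD libraries varied more (biological coefficient of variation 0.213, against 0.0842 in control), and the second principal component, with 12.3% of the variance, separated the CD libraries from each other, with replicates 1 and 3 at its ends. HMGCS1, an enzyme of sterol synthesis that rises when sterols are short, was 130 ± 15.6 CPM without and 1400 ± 239 CPM with CD (FDR 4.17e-07, edgeR). Among the defining markers of epithelium, KRT19 was abundant (936 ± 66.9 CPM in control), but EPCAM and CDH1 had only 7 and 8 reads in all control libraries together. Of the defining marker of blood cells, PTPRC, the control libraries held 0 reads and the CD libraries 1. Among the other blood cell markers, CD68, CSF1R and CD14 were called higher in CD (edgeR), and CD79A, LYZ and ITGAM had 0 or 1 read.

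All 8 genes passed the filter. In CD, 6 of the 8 were higher (75%, against 24.8% of all tested genes) and 0 were lower at this FDR in edgeR, while STAT2 and MX1 did not pass. The count of higher genes fell to 3 of the 8 when control replicate 1 or control replicate 2 was left out, where 2265 of 12343 and 2391 of 12319 tested genes were higher. The list had been chosen with results of these libraries known, so its count is a description. The median log2 fold change of the 8 genes was 0.51, and that of all tested genes was 0.057. For 7 of the 8 the lowest CD library exceeded the highest control library, which was the case for 29.5% of all tested genes, while 28.6% of all genes lay below in the same sense. For groups of 3 the smallest two-sided p of the exact permutation test is 0.1, the value of each of these 7 genes. Bulk RNA cannot tell a change in every cell from a change in the share of cells that express a gene.

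**Figure D1:**
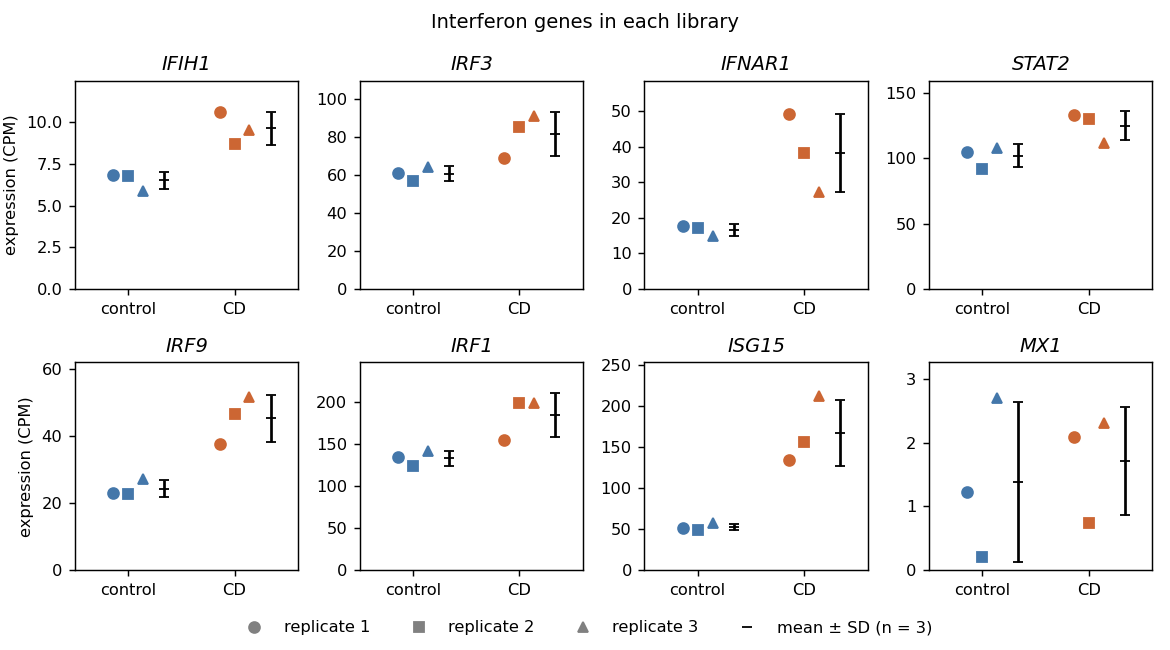
Expression (CPM, linear axis from 0) of the 8 interferon genes in each control (blue) and CD (orange) library, with the mean ± SD of 3 libraries at the right of each group and symbols for the replicate number. The CD libraries lie above all control libraries for every gene except MX1.

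The sensor IFIH1 (ENSNVIG00000006456), a helicase that binds long double-stranded RNA in the cytosol, had 6.81, 6.79 and 5.90 CPM in control replicates 1, 2 and 3 and 10.6, 8.71 and 9.51 CPM in CD replicates 1, 2 and 3. The groups did not overlap. IFIH1 rose 1.48-fold (95% interval 1.13 to 1.95), with an FDR of 0.0236 in edgeR and a log2 fold change of 0.57 ± 0.18 (SE). The counts behind this were 296 control and 447 CD reads. The call was lost when any 1 control library was left out (FDR between 0.0629 and 0.108, edgeR), although the log2 fold change stayed between 0.50 and 0.60 over all 6 omissions.

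IRF3 (ENSNVIG00000013916), the latent factor that the sensors activate by phosphorylation, was at 61.0, 56.6 and 64.2 CPM in control libraries, against 68.8, 85.4 and 91.0 CPM after CD. CD replicate 1 was the lowest CD library and lay just above the highest control. Its rise was small, 1.35-fold (95% interval 1.10 to 1.66), with an FDR of 0.0234 in edgeR and a log2 fold change of 0.43 ± 0.13 (SE). As IRF3 is activated by phosphorylation and not mainly by more mRNA, its activity is not measured here. Without control replicate 1, 2 or 3 or CD replicate 2, IRF3 was not called (FDR 0.0816, 0.0992, 0.056 and 0.105, edgeR).

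IFNAR1 (ENSNVIG00000005801), a subunit of the receptor for type I interferons, showed the second largest change among the 8 genes. In control replicates 1, 2 and 3 it was at 17.8, 17.2 and 14.9 CPM and in CD replicates 1, 2 and 3 at 49.2, 38.3 and 27.2 CPM. The control libraries were close together, whereas CD replicate 1 exceeded CD replicate 3 by more than the whole distance between CD replicate 3 and the nearest control. The mean rose from 16.6 ± 1.56 to 38.2 ± 11.0 CPM, which is 2.30-fold (95% interval 1.66 to 3.18), with an FDR of 0.00106 in edgeR and a log2 fold change of 1.20 ± 0.21 (SE). The gene was called in each of 14 alternative settings, and with each library left out in turn its log2 fold change lay between 0.99 and 1.36.

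STAT2 (ENSNVIG00000000267), which bears the signal from the receptor to the nucleus and binds IRF9 directly, was at 105, 92.1 and 108 CPM in control libraries, against 133, 130 and 112 CPM after CD. CD replicate 3 stood close to the highest control, and the other CD libraries were clearly above. The difference of 1.23-fold (95% interval 1.02 to 1.48; log2 fold change 0.30 ± 0.12, SE) missed the threshold, with an FDR of 0.0622 in edgeR. It passed in 2 of 14 alternative settings, those with upper quartile scaling (FDR 0.0345, edgeR) and without CD replicate 3 (FDR 0.00691, edgeR).

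IRF9 (ENSNVIG00000000426), the DNA-binding subunit of ISGF3 and itself an ISG, was at 23.1, 22.6 and 27.3 CPM in control libraries, against 37.6, 46.4 and 51.5 CPM after CD, with no overlap. The rise was 1.85-fold (95% interval 1.46 to 2.36), with an FDR of 0.0011 in edgeR and a log2 fold change of 0.89 ± 0.16 (SE). IRF9 was called in all 14 alternative settings, with values between 0.75 and 1.02 when 1 library was left out.

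To compare genes without any scaling between libraries, read counts were divided within each library (these pairs were chosen after the values had been seen). The ratio of IRF9 to STAT2 reads was 0.22, 0.246 and 0.252 in control libraries and 0.283, 0.356 and 0.458 in CD libraries. All CD ratios were higher than all control ratios, by 1.5-fold on average (two-sided p = 0.1, exact permutation test). Such ratios depend on transcript length and are compared only between groups.

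IRF1 (ENSNVIG00000017899), a factor that induces many ISGs and is itself induced by interferon and by NF-κB, was at 134, 124 and 142 CPM in control libraries, against 154, 199 and 198 CPM after CD. CD replicate 1 was nearer to the controls than to the other CD libraries. It rose 1.38-fold (95% interval 1.12 to 1.68), with an FDR of 0.0151 in edgeR and a log2 fold change of 0.46 ± 0.13 (SE). IRF1 was not called without control replicate 1 or 2 or without CD replicate 2 (FDR 0.0589, 0.0724 and 0.0867, edgeR).

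ISG15 (ENSNVIG00000004492), a small ubiquitin-like protein that is attached to other proteins and is among the ISGs most strongly induced by interferon, changed most of the 8 genes. It had 51.3, 49.6 and 57.5 CPM in control libraries, against 134, 156 and 212 CPM after CD. Every CD library held more than 2 times the CPM of the highest control. The rise was 3.17-fold (95% interval 2.43 to 4.12), with an FDR of 3.85e-05 in edgeR and a log2 fold change of 1.66 ± 0.17 (SE). CD replicate 3 was the highest, and without it the log2 fold change was 1.42, the lowest value over the 6 omissions. All 14 alternative settings called the gene.

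The enzymes that attach ISG15 to proteins had fitted changes in the other direction, and neither passed the test with all libraries. UBA7, which activates ISG15, was at 9.62 ± 0.779 CPM without and 7.66 ± 0.751 CPM with CD (log2 fold change -0.33, FDR 0.147, edgeR), and UBE2L6, which carries it, at 137 ± 2.12 and 115 ± 19.5 CPM (log2 fold change -0.25, FDR 0.155, edgeR). Without CD replicate 3, UBE2L6 was called lower (log2 fold change -0.41, FDR 0.00134, edgeR). The ratio of ISG15 to UBE2L6 reads was 0.369, 0.366 and 0.426 in control libraries and 1.39, 1.37 and 1.57 in CD libraries, 3.73-fold higher in CD (exact permutation test, two-sided p = 0.1). HERC5, the ligase, and USP18, the protease that removes ISG15, had no row under those symbols.

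MX1 (ENSNVIG00000005239), a dynamin-like GTPase that blocks viruses and is a classical reporter of type I interferon, was barely expressed. The libraries held 17, 3 and 49 reads in control replicates 1, 2 and 3 and 34, 12 and 32 reads in CD replicates 1, 2 and 3, which correspond to 1.22, 0.217 and 2.7 CPM and to 2.09, 0.736 and 2.31 CPM. The groups overlapped, and replicates of a group differed more than the groups. The log2 fold change was 0.23 ± 0.63 (SE; FDR 0.783, edgeR). Its 95% interval ran from 0.445-fold to 3.10-fold, so a fall, no change and a rise within those bounds are all compatible with these libraries.

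**Figure D2:**
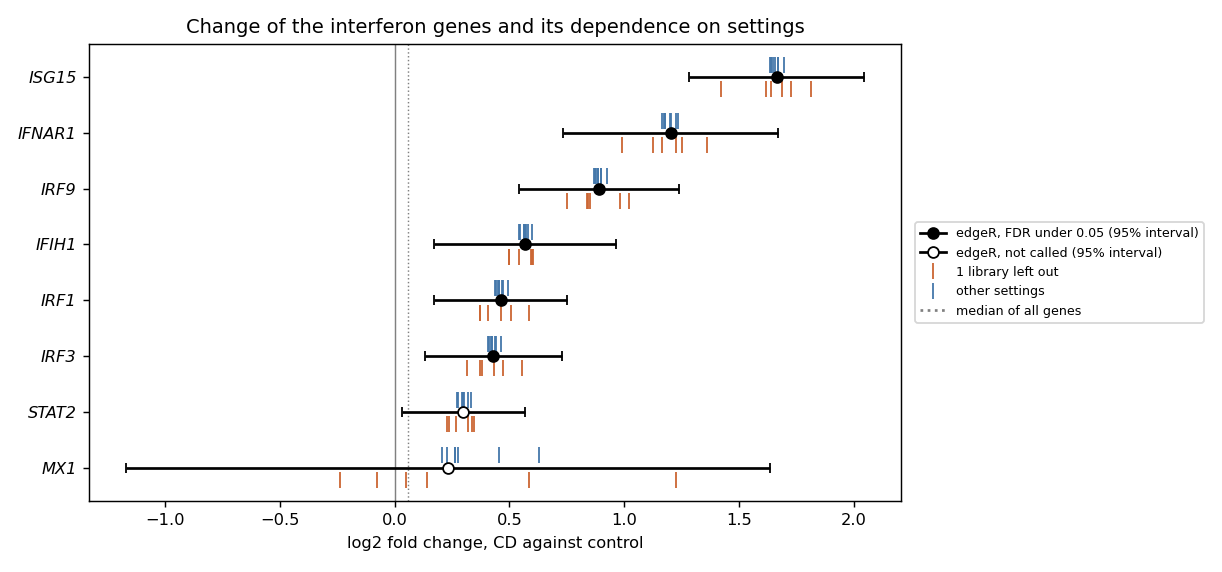
Log2 fold change of CD against control (edgeR, circles, with the 95% interval as bars) for the 8 interferon genes, with ticks for the values when 1 library was left out (orange, below) and in the other settings (blue, above). ISG15, IFNAR1 and IRF9 stay well to the right of 0 in every setting, whereas the ticks of MX1 lie on both sides of it.

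Over all 8 genes, 3 (ISG15, IFNAR1 and IRF9) were called in each of 14 alternative settings. Of the 77 tested genes of the 5 other pathway lists given below, 23 were called in every alternative setting that fitted them. That share was not computed for all tested genes. The called genes differed in which CD library was the highest. IFNAR1 and IFIH1 were highest in CD replicate 1, as was STAT2, while ISG15, IRF9 and IRF3 were highest in CD replicate 3 and lowest in CD replicate 1. CD replicates 1 and 3 also lay at the ends of the second principal component. The share of unmapped reads was 18.4%, 13.6% and 4.25% for the control libraries, by replicate number, and 3.54%, 4.33% and 9.37% for CD. It was thus highest in control replicates 1 and 2, and leaving out either of these left 3 of the 8 genes called. Without control replicate 3, where the share was 4.25%, IRF3 and IFIH1 also lost their call (FDR 0.056 and 0.108, edgeR). The part of the second principal component or of the unmapped reads in the values of the genes was not tested.

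**Figure D3:**
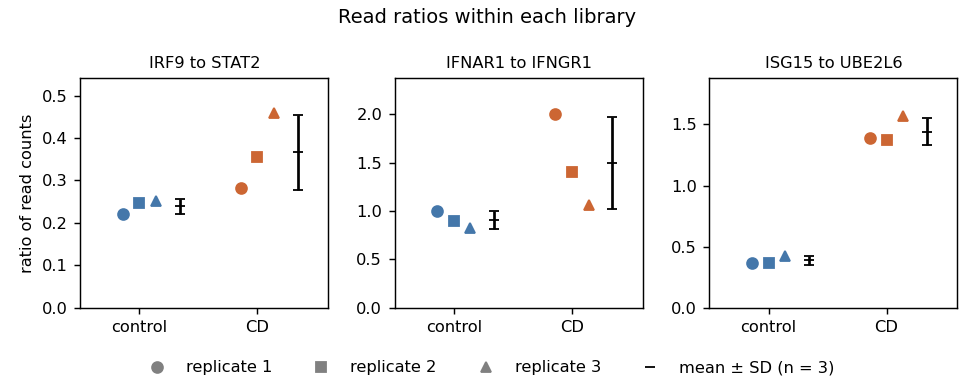
Ratios of read counts of gene pairs within each library (linear axes from 0), with symbols for the replicate number and the mean ± SD of 3 libraries at the right. The ratio of ISG15 to UBE2L6 lies at 1.37 or more in the CD and at 0.426 or less in the control libraries, and the other ratios lie closer together.

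The rest of the pathway was taken from 5 lists of 144 symbols, written from general knowledge, of which 97 had a row and 77 were tested. Of the 77 genes, edgeR called 25 higher and 13 lower in CD. The share called, 49.4%, was close to the 47.7% of all tested genes, and the median log2 fold change was 0.26. The interferons themselves were at or near 0. IFNK had 0 reads in all 6 libraries, IFNB1 had 1 read in CD replicate 1 and IFNG 1 read in CD replicate 3, and a count of 0 allows at most 3 reads, or 0.165 to 0.217 CPM, per library, for counting error only. Most genes of type I and type III interferons had no row under their symbols.

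Of the receptor subunits in the lists, IFNGR1 was the only one with a row beside IFNAR1. IFNGR1, which binds interferon gamma, rose from 18.4 ± 0.742 to 25.9 ± 1.33 CPM (log2 fold change 0.50, FDR 0.0126, edgeR), and 11 of 14 alternative settings called it, the exceptions being those without control replicate 1 or 3 or CD replicate 2. The fitted change of IFNAR1 was larger. The ratio of IFNAR1 to IFNGR1 reads was 1, 0.895 and 0.823 in control libraries and 2, 1.4 and 1.06 in CD libraries (exact permutation test, two-sided p = 0.1). CD replicate 3 was thereby barely above the highest control.

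Among the sensors and adaptors, edgeR called 4 of 15 tested genes higher and 5 lower (60% called, against 47.7% of all tested genes). TICAM1 (TRIF), the adaptor of the endosomal RNA receptor TLR3, rose from 32.0 ± 2.20 to 86.2 ± 8.72 CPM, a log2 fold change of 1.43 (FDR 1.51e-05, edgeR). TLR3 itself fell from 4.37 ± 0.419 to 1.65 ± 0.783 CPM (log2 fold change -1.39, FDR 0.00422, edgeR). The higher genes also included TANK, a scaffold of TBK1 (log2 fold change 1.35), and the kinase TBK1 itself (0.57). The other lower genes were TRIM25, a ubiquitin ligase of the RIG-I pathway (-0.87), EIF2AK2 or PKR, a kinase activated by double-stranded RNA (-0.59), DHX58 or LGP2, a relative of IFIH1 (-0.56), and ADAR, which edits double-stranded RNA (-0.56). DHX58, with an FDR of 0.0497, was called in only 3 of 14 alternative settings, and EIF2AK2 and TBK1 in 10 of 14. STING1 was 6.73 ± 0.751 CPM without and 4.97 ± 0.521 CPM with CD (log2 fold change -0.44, FDR 0.0849, edgeR). MAVS, the adaptor of IFIH1 at mitochondria, was at 90.0 ± 5.69 and 101 ± 6.90 CPM and was not called (log2 fold change 0.16, 95% interval -0.09 to 0.41, FDR 0.258, edgeR). IKBKE, TRAF3, TRAF6 and MYD88 were not called either, with log2 fold changes between 0.10 and 0.28. CGAS had 1 read in all, as had TLR7, and TLR8 had 0.

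In the JAK-STAT and IRF list, 3 of 11 tested genes were higher and 1 was lower (edgeR). The share called, 36.4%, was below the 47.7% of all tested genes. The largest rise was that of IRF2, which competes with IRF1 for the same DNA sites and represses many ISGs. It went from 13.5 ± 1.20 to 33.2 ± 0.758 CPM (log2 fold change 1.295, FDR 5.44e-05, edgeR). JAK1 rose by a log2 fold change of 0.55 (FDR 0.00555, edgeR) and STAT3 by 0.63 (FDR 0.0303, edgeR), but STAT3 was called in only 7 of 14 alternative settings and its groups overlapped. IRF8, an IRF best known from myeloid and B cells, fell from 69.6 ± 5.72 to 37.0 ± 2.04 CPM (log2 fold change -0.91, FDR 2.02e-04, edgeR). TYK2, JAK2, STAT5A, STAT5B, STAT6 and IRF5 had log2 fold changes between 0.15 and 0.38 and were not called, though STAT5A (0.47) and STAT6 (0.29) were without CD replicate 3. STAT4 had 0 reads and IRF4 had 1, too few for the filter. Beside the 8 genes, markers of blood cells moved with CD. Of 8 such markers, 7 had a row, and their summed level was 5.64 to 6.89 CPM in control and 21.8 to 26.9 CPM in CD libraries, mostly from CD68, a lysosomal protein, and less from CSF1R and CD14, while CD79A and LYZ had 0 reads and PTPRC and ITGAM 1 read each. The summed level of the epithelial markers was 1080 to 1210 CPM in control and 576 to 664 CPM in CD libraries, most of it from KRT19, which fell to 458 ± 77.1 CPM, while CLDN4 rose 11.7-fold (FDR 9.61e-06, edgeR). That of the endothelial markers was 206 to 221 and 75.9 to 124 CPM, nearly all from TEK, which fell, while VWF rose 10.4-fold from 5 control reads (FDR 0.000882, edgeR), and PECAM1 and CDH5 had 0 control reads. That of the fibroblast markers was 4270 to 4540 and 3920 to 4970 CPM, most of it from VIM, which was not called, while COL1A1, COL1A2, COL3A1 and PDGFRB fell. Their part in the changes of interferon genes was not tested.

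**Figure D4:**
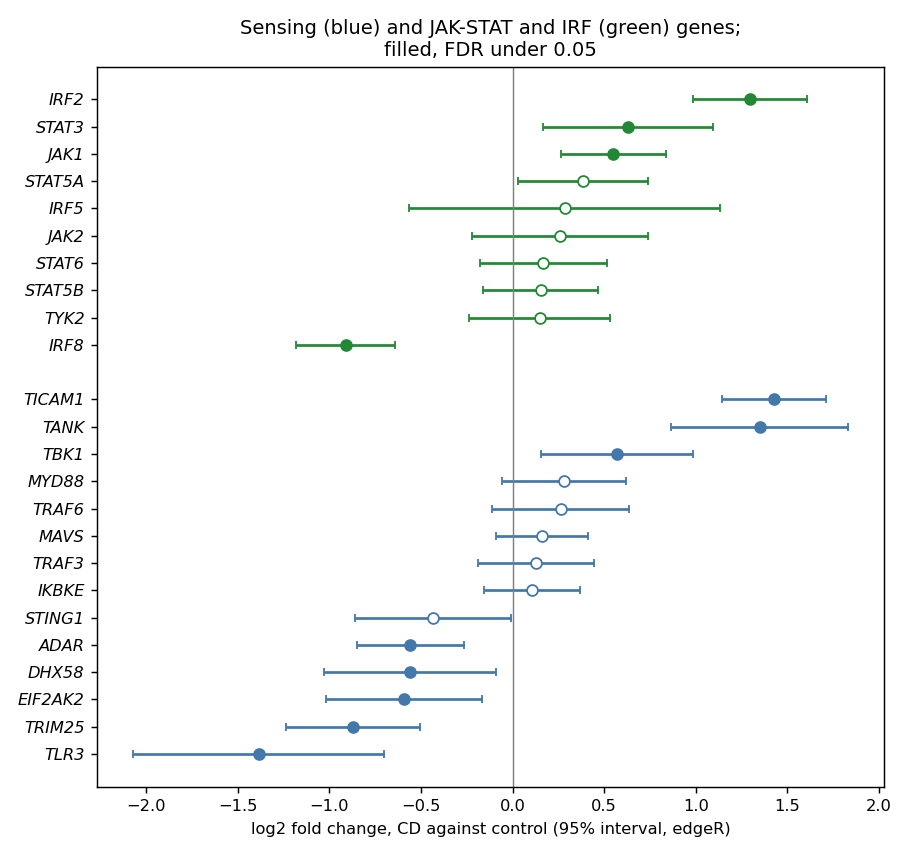
Change between control and CD on the log2 scale, with the 95% interval from edgeR, for the tested sensors and adaptors (blue) and JAK, STAT and IRF genes (green) that are named in the text, where filled circles mark an FDR under 0.05. IRF2 and TICAM1 lie highest within their lists and IRF8 and TLR3 lowest.

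Of the other ISGs, 36 were tested, and edgeR called 12 higher and 5 lower in CD, or 47.2%, near the share of all tested genes. The highest log2 fold changes were those of CCL5, a chemokine (3.87), ISG20, an RNA exonuclease (3.39), and IFIT3, which binds viral RNA together with its relatives (2.05). CCL5 was at 2.58 ± 0.331 CPM without and 37.5 ± 8.06 CPM with CD (FDR 8.66e-07, edgeR), ISG20 at 0.857 ± 0.307 and 9.16 ± 2.31 CPM (FDR 1.79e-05, edgeR), and IFIT3 at 4.30 ± 1.08 and 17.9 ± 4.98 CPM (FDR 1.66e-04, edgeR). IFIT2, a relative of IFIT3, rose by a log2 fold change of 0.69 (FDR 0.0102, edgeR), and IFIT5 did not pass (0.30, FDR 0.253, edgeR). The calls of IFIT2 and HERC6 (log2 fold change 0.58) were lost without 1 of the control libraries, and those of PARP9 (0.65) and IFITM5 (0.77) without any 1 of several libraries. IFITM5 had only 57 control and 98 CD reads and was called in 7 of 13 alternative settings, not in DESeq2. Whether it responds to interferon in these cells was not tested.

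The oligoadenylate synthetases OAS1, OAS2 and OAS3, which sense double-stranded RNA, had log2 fold changes of 0.19, 0.14 and -0.68, of which OAS3 alone was called (FDR 0.0219, edgeR), though not without control replicate 1 or 3. IFI6, IFI44 and IFI44L had log2 fold changes of 0.27, -0.23 and 0.092, and none was called. The lowest values in the list belonged to NLRC5 (-1.75), the activator of MHC class I genes, and PSMB9 (-1.39), a subunit of the immunoproteasome, followed by OAS3. NLRC5 had few reads, 51 in control and 15 in CD libraries. PSMB9 fell from 8.29 ± 0.0442 to 3.18 ± 1.08 CPM (FDR 0.00128, edgeR). Of the other genes of class I antigen presentation, B2M was higher (log2 fold change 0.46, FDR 0.0472, edgeR) but was called in only 7 of 14 alternative settings, and leaving out CD replicate 3 lowered its log2 fold change to 0.20. TAP1 and TAPBP were not called (-0.25 and -0.036), though TAP1 was lower without CD replicate 3 (-0.29).

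Of the negative regulators, 5 of 14 tested genes were higher and 2 lower (edgeR), so that 50% were called, close to the 47.7% of all tested genes. TNFAIP3 (A20), which ends NF-κB signaling, rose from 8.24 ± 1.47 to 107 ± 18.0 CPM (log2 fold change 3.70, FDR 4.71e-07, edgeR). IRF2BP2, a corepressor that binds IRF2, rose by a log2 fold change of 1.20 (FDR 3.17e-05, edgeR), and its relative IRF2BP1 fell by 0.57 on the log2 scale (FDR 0.00574, edgeR). SOCS3 and SOCS1, feedback inhibitors of JAK-STAT signaling, were called in opposite directions, SOCS3 with a log2 fold change of 0.86 (FDR 0.0102, edgeR) and SOCS1 with -1.59 (FDR 0.0416, edgeR). SOCS1 had 67 control reads and 1, 6 and 15 reads in CD replicates 1, 2 and 3, and 5 of 13 alternative settings called it. Leaving out CD replicate 3 moved its log2 fold change to -2.76, and leaving out CD replicate 1 to -1.04, where it was not called. SOCS3 was not called without control replicate 1. PTPN1, a phosphatase that acts on JAKs, was higher (log2 fold change 0.61, FDR 0.022, edgeR) and was called in 10 of 14 alternative settings.

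**Figure D5:**
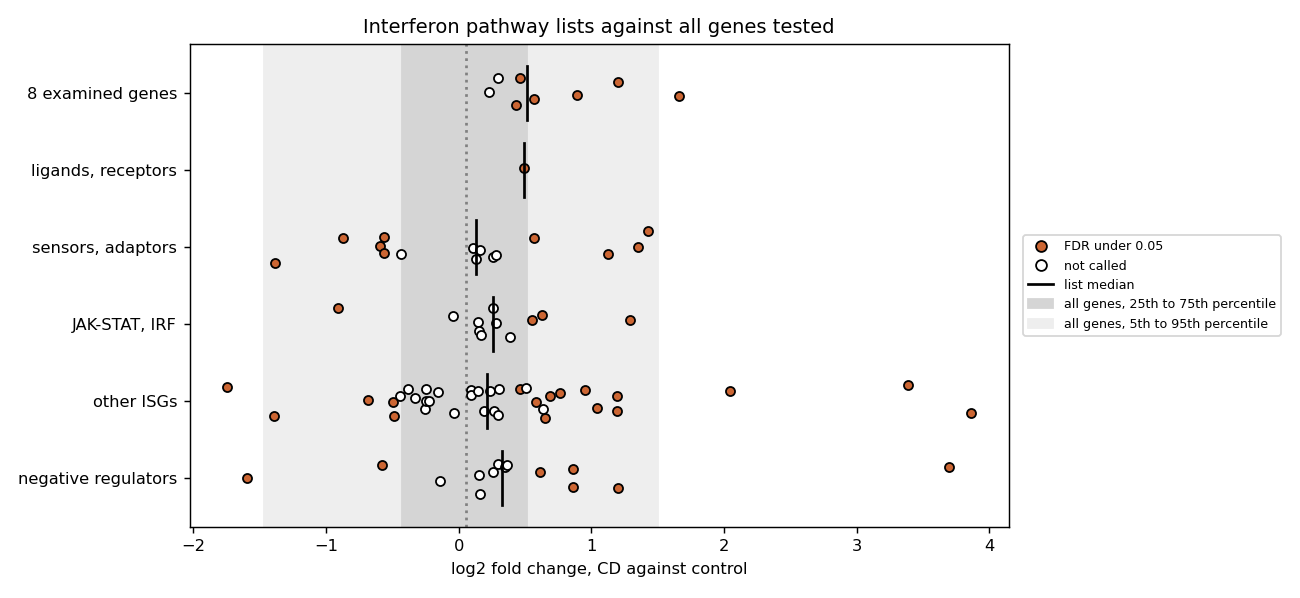
Log2 fold change of CD against control for every tested gene of the 8 interferon genes and of the 5 other lists (orange, FDR under 0.05 in edgeR; white, not called), with the median of each list as a bar. The gray bands give the 25th to 75th percentile (-0.43 to 0.52) and the 5th to 95th percentile (-1.47 to 1.505) of all tested genes, and most points of the lists lie within the wider band.

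The likeness of single genes to ISG15 was measured by the Pearson correlation of log2 CPM over the 6 libraries. The genes with a symbol that were most like it were MGST3, a glutathione transferase of membranes (r = 0.999), NFKBIA, the inhibitor of NF-κB (r = 0.9989), and CLIC1, a chloride channel protein (r = 0.9985). The 6 libraries fall into the control and CD groups, and 1050 of 12148 tested genes had an r over 0.95 with ISG15.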

How the data were processed

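Per the labels and the methods of the study, poly(A) mRNA of Mv1Lu cells was sequenced, and reads were trimmed with fastp 0.20.1, aligned to mink assembly NNQGG.v01 with STAR 2.7.2a and compared with DESeq2 1.30.1 in R 4.0.3. The authors deposited raw read counts for 24526 genes. The counting program and its use of strand are not given in the sources used here, which makes overlapping or antisense genes uncertain. The 4 rows of reads not on genes (29.3% to 47.2% of the reads of a library) were left out of library sizes. Deposited normalized files were not used.

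The test was run in R 4.3.3 with edgeR 4.0.16 (filterByExpr with a minimum count of 10 and total of 15, TMM, robust glmQLFit, glmQLFTest, condition as the only term, Benjamini-Hochberg adjustment over 12148 genes, threshold 0.05), after tests on simulated data. Intervals at 95% used the edgeR standard error and the moderated degrees of freedom. They and the limit of 3 reads for a count of 0 cover these libraries only. The median standard error of the log2 fold change was 0.18.

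The genes and lists were chosen with earlier results of these data known. Named are the 9 symbols; of each other list, the 3 called genes that rose most and the 3 that fell most, all receptors, sensors, JAKs, STATs and IRFs, and genes whose call depends on 1 library; HMGCS1; and the 3 genes most like ISG15. UBA7, UBE2L6, IFIT2, IFIT5, OAS1, OAS2, IFI6, IFI44, IFI44L, B2M, TAP1, TAPBP and the read ratios were added after values were seen. Some genes that this rule covers are not reported here. Alternatives were DESeq2 1.42.0, limma-voom 3.58.1, other scalings, other count filters, a block for the replicate number, leaving out 1 library at a time, and an FDR of 0.01.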

Additional observations from a re-analysis of the deposited data

How the results depend on the processing

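Of 111 values of the 8 interferon genes under alternatives, 96 kept their direction and their side of the threshold, 11 lost the call, 2 gained it and 2 changed sign. ISG15, IFNAR1 and IRF9 kept their call in all 14 settings. Leaving out a library leaves fewer samples to test, and the cause of the other changes was not tested. STAT2 passed with upper quartile scaling (log2 fold change 0.332). With 1 library left out, log2 fold changes ranged from 0.228 to 0.344 for STAT2, 0.37 to 0.586 for IRF1, 0.313 to 0.553 for IRF3, 0.497 to 0.603 for IFIH1 and -0.239 to 1.226 for MX1, which fell below 0 without control replicate 2 or CD replicate 3 (-0.075). MX1 could not be fitted with the minimum of 50 counts in 3 libraries.

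At an FDR of 0.01, 2006 of all genes were higher, as were 3 of the 8 interferon genes, 0 ligands and receptors, 7 other ISGs and 3 negative regulators, while 3 sensors, 3 other ISGs and 1 negative regulator were lower. Total count scaling left 3 lower sensors. DESeq2, upper quartile scaling, total count scaling and the minimum of 50 counts each left 1 lower negative regulator. With 1 library left out, 3 to 7 of the 8 genes, 0 to 1 ligands and receptors and 2 to 5 JAK, STAT and IRF genes were higher, and 3 to 5 sensors, 3 to 9 other ISGs and 1 to 2 negative regulators were lower. The extremes of 7, 5 and 9 came without CD replicate 3, where 3616 of all 12330 tested genes were higher and 3606 lower.

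With 1 library left out, genes that were not called changed sign, with ranges of -0.066 to 0.597 for IRF5, -0.043 to 0.582 for IFI6, -0.037 to 0.2 for SAMHD1 (also -0.008), -0.128 to 0.041 for TAPBP (also 0.01) and -0.393 to 0.445 for PTPN11.

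Deviations of libraries with the same replicate number correlated at -0.024, -0.329 and -0.185, so no shared effect of the replicate number was seen. These values cannot tell whether libraries with the same number were handled together. With the replicate number as a block, 2772 genes were higher and 2636 lower, IFIH1 was not called (log2 fold change 0.564, FDR 0.0666, edgeR) and PTPN11 changed sign (-0.008). Over all settings the median log2 fold change of all genes moved by less than 0.1. The reads of MX1 varied too much between replicates, and those of several ISGs were too few, for a comparison.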

Other observations

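Several ISGs did not pass the default filter of edgeR on low counts. RSAD2 (viperin), which makes an antiviral nucleotide, had 15 control and 28 CD reads in all, DDX60 had 20 and 24, EPSTI1 13 and 9, TRIM14 22 and 11, and MX2 4 and 6. These 5 genes were fitted by DESeq2 and by edgeR without the filter, and neither called any of them (lowest FDR 0.364 in DESeq2 and 0.18 in edgeR). CXCL9 and TRIM22 had 0 reads in all 6 libraries. CH25H, the ISG that makes 25-hydroxycholesterol from cholesterol, had 1 control read and 0 CD reads.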
